A study of Homo sapiens with 112 samples.

Results

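The messenger RNA of 8 prostate lineage transcription factors, FOXA1, HOXB13, GATA2, GRHL2, SOX9, SPDEF, FOXP1 and ONECUT2, was followed through androgen stimulation and receptor blockade in the human prostate cancer cell lines VCaP and LAPC4. The factors were chosen by name, as rows of a table that lists 58684 genes, and all 8 were measured well enough to be tested in both lines. For comparison, 19266 genes were tested in VCaP and 18204 in LAPC4, and 16578 in both. All groups share a deprivation of hormone, 2 days in charcoal-stripped serum, before treatment. They then received DMSO as vehicle, 1 nM of the synthetic androgen R1881, or 1 nM R1881 together with 500 nM (low) or 2 µM (high) of the androgen receptor antagonist darolutamide, and were harvested after 8 or 22 h. Poly-A RNA was sequenced in 112 libraries, 55 of VCaP and 57 of LAPC4. In VCaP there were 10 libraries with DMSO, 10 with R1881, 4 with the low and 5 with the high dose at 8 h, while 22 h had 8, 9, 4 and 5. LAPC4 had 10, 10, 5 and 5 at 8 h, with 7, 10, 5 and 5 at 22 h. No group received darolutamide without R1881, and each line stands for a single tumour.

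In luminal cells of the prostate, the androgen receptor binds DNA together with other factors that fix which enhancers it can use. FOXA1 is a forkhead pioneer factor that opens chromatin, HOXB13 is a homeobox factor of the prostate, and GATA2 is a zinc finger factor that acts upstream of the receptor and at its enhancers. GRHL2 is a grainyhead factor that maintains epithelial genes, SOX9 is a progenitor and developmental factor, and SPDEF is an ETS factor of secretory luminal cells. FOXP1 is a forkhead protein that mostly represses, and ONECUT2 is a homeobox factor studied in prostate cancers that escape receptor control.

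The 3 genes SPDEF, GATA2 and ONECUT2, of different base composition and different behaviour in the counts below, are shown by the 250 bases before their transcription start, from RefSeq on GRCh38.p14, written 5′ to 3′ on the strand of the gene with each CG dinucleotide in capitals. SPDEF starts on chromosome 6 (minus strand, window chr6:34556330-34556579), GATA2 on chromosome 3 (minus strand, window chr3:128493202-128493451, inside the antisense gene GATA2-AS1), and ONECUT2 on chromosome 18 (plus strand, window chr18:57435124-57435373). GATA2 has another RefSeq start, with the window chr3:128488531-128488780 (18 CG dinucleotides, 71.2% G+C), which is not shown.
SPDEF: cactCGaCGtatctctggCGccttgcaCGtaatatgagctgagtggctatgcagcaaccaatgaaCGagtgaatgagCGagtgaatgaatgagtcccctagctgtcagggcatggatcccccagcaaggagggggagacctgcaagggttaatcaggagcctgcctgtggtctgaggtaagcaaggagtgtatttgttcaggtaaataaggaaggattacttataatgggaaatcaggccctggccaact
GATA2: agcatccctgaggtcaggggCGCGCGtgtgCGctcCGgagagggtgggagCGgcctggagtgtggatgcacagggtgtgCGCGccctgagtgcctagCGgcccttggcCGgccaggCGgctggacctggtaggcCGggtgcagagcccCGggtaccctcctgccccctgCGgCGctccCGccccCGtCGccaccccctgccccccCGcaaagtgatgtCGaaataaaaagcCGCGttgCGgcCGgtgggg
ONECUT2: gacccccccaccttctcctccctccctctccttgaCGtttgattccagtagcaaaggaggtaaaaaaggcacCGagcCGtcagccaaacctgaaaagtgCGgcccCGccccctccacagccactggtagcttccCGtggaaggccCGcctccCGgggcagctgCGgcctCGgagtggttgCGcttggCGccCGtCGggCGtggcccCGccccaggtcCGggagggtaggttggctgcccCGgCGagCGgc
The window of SPDEF held 6 CG dinucleotides at 50.8% G+C, below the median of 11 over all 35114 such windows. GATA2 had 24 at 72.8% and ONECUT2 had 20 at 68.8%, both above that median. None of the 3 windows held, on either strand, the letters AGAACA (a half-site of the androgen receptor, in 12.4% of all windows), AGATAA (zinc finger factors of the same family as GATA2, 9.17%), TGTTTAC (forkhead factors, 2.98%) or CCAATAAA (HOXB13, 0.863%). No motif in this list contains another. Windows of FOXA1 and of the several starts of FOXP1 were searched too and are not shown. A FOXP1 window held AGAACA 139 bases before its start, and another held TGTTTAC 193 bases before its start. FOXA1 had no match, and no windows were available for HOXB13, GRHL2 and SOX9.

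Libraries held 12188455 to 25201678 counts. ERG, which VCaP cells express from a fusion to an androgen-responsive promoter, was at 117 to 1067 CPM (a count scaled by the TMM-adjusted total of its library to a common library size) in VCaP and at 0 counts in 54 of 57 LAPC4 libraries, and at most 1 count in the others. TMM factors for CPM were computed within each line, so CPM values of VCaP and LAPC4 are not on one scale. The receptor targets KLK3 and FKBP5 rose with R1881 at 22 h in both lines (log2 fold changes of 3.44 and 5.49 in VCaP, 1.65 and 1.36 in LAPC4). Summed luminal markers reached 8404 to 23748 CPM in VCaP and 862 to 1381 CPM in LAPC4, while summed basal markers stayed between 0.047 and 1.26 CPM in VCaP, with the basal keratin KRT5 at 0 in all 55 libraries, and between 18.9 and 51.8 CPM in LAPC4. Of the luminal markers, KLK2 (2349 to 8743 CPM in VCaP, 2.41 to 33.8 in LAPC4) and ACPP (3851 to 12275 and 21.1 to 36.8) were apart between the lines. The keratins KRT8 (158 to 1338 and 413 to 763) and KRT18 (145 to 701 and 289 to 396) overlapped, as did KLK3 and TMPRSS2. Other marker sums moved with R1881 at 22 h. In LAPC4 the basal sum was 18.9 to 25.8 CPM with DMSO and 36.4 to 51.8 with R1881, with KRT5 at 1.51 CPM or less and TP63 at 0.403 CPM or less in every library. KRT15 alone had 17.6 to 50.1 CPM over the LAPC4 libraries, and KRT14 had at most 1.05 CPM. Neuroendocrine markers summed to 219 to 277 CPM with DMSO and 148 to 171 with R1881 in VCaP, and to 18.9 to 22.2 and 14.3 to 17.8 in LAPC4. Fibroblast markers summed to 25.8 to 29.5 CPM with DMSO and 0.630 to 1.61 with R1881 in VCaP, where LUM reached 29.1 CPM and COL1A2 was at 0 in all 55 libraries, and to 4.43 to 6.01 and 2.05 to 3.23 in LAPC4. The part of these markers in the results below was not tested. These are bulk libraries, so that fewer cells with a transcript and less transcript per cell cannot be told apart.

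Without androgen, FOXA1 was the most abundant of the 8 transcripts per length of exon in both lines, and FOXP1 and ONECUT2 were the least abundant. These levels are scaled within each line and give the order of factors in a line, not the gap between lines. That gap was tested with a scaling over both lines, given further below. At 22 h with DMSO, FOXA1 stood at 158 ± 4.83 CPM per kb in VCaP (SD, n = 8) and 244 ± 6.40 in LAPC4 (SD, n = 7), followed by HOXB13 at 108 ± 12 and 90.1 ± 7.27. GATA2 (62.9 ± 9.34) and SPDEF (58.3 ± 17.0) were next in VCaP and overlapped in their spread, whereas SPDEF (57.8 ± 12.9) was ahead of GRHL2 (31.6 ± 1.23) and GATA2 (28.4 ± 2.89) in LAPC4. Then came GRHL2 (34.5 ± 1.61) and SOX9 (16.9 ± 1.34) in VCaP, and SOX9 at 7.94 ± 0.523 CPM per kb in LAPC4. FOXP1 had 5.24 ± 0.180 CPM per kb in VCaP and 1.71 ± 0.0744 in LAPC4, a value lowered by the 32.8 kb of exon that its 71 annotated transcripts cover together. ONECUT2 had 1.83 ± 0.182 and 0.529 ± 0.0869, over 16.5 kb of exon.

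**Figure D1:**
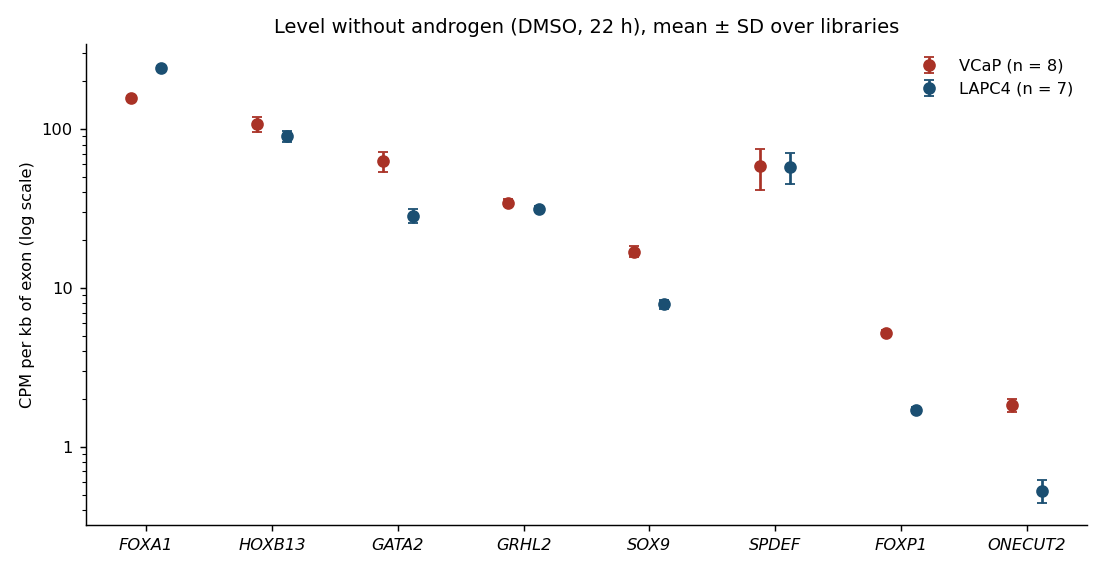
mRNA level of the 8 factors with DMSO at 22 h, in CPM per kb of exon on a log axis, in VCaP and LAPC4. Points are means over the libraries of a line and bars mark the SD. CPM were scaled within each line, so heights are not on one scale between the lines. FOXA1 is at the top in both lines (158 and 244 CPM per kb) and ONECUT2 at the bottom (1.83 and 0.529).

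Levels with DMSO at 22 h were compared between the lines in one fit with the edgeR quasi-likelihood test, in which a gene is called at a Benjamini-Hochberg adjusted p under 0.05. Of the 8 factors 7 were called, where 85.5% of all genes were, with a median absolute log2 difference of 0.98 against 0.78 over all genes. The gaps were widest for ONECUT2, 4.28-fold higher in VCaP (log2 difference 2.10, SE 0.08, edgeR adjusted p = 1.87e-47), and FOXP1, 3.78-fold higher in VCaP (1.92, SE 0.04, adjusted p = 1.33e-65). GATA2 (1.45), SOX9 (1.40), HOXB13 (0.56) and GRHL2 (0.43) were also higher in VCaP, and FOXA1 was 1.26-fold lower (log2 difference -0.33, SE 0.02, adjusted p = 4.17e-25). SPDEF did not pass (0.31, 95% interval -0.12 to 0.73). This comparison of different cell lines moves with scaling: library totals in place of TMM factors, an alternative chosen after seeing the data, shifted the log2 differences by -0.27 and took the share of calls that are higher in VCaP from 48.4% to 37.9%.

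In VCaP, R1881 changed the mRNA of all 8 factors, some in opposite directions and several on different time courses. At 8 h, GRHL2, SOX9, SPDEF and ONECUT2 rose and FOXA1, HOXB13, GATA2 and FOXP1 fell. At 22 h, FOXA1 and HOXB13 were above DMSO and GRHL2 below it, while the other 5 kept the direction of 8 h. Calls are common in this comparison, so the count by itself says little: 8 of 8 factors were called at 8 h, where 66.9% of all genes were, and 8 of 8 at 22 h, where 77.4% were. The median absolute log2 fold change of the 8 was 1.19 at 8 h against 0.33 over all genes, and 0.42 at 22 h against 0.53. Ranges that do not overlap are common too. The R1881 and DMSO libraries were apart for 7 of 8 factors at 8 h (32% of all genes). At 22 h they were apart for 6 of 8 (46.8%). With library totals in place of TMM factors (chosen after seeing the data), the median over all genes moved from -0.03 to -0.18 at 8 h and from -0.03 to -0.14 at 22 h, and the share of calls that are rises moved from 49.1% to 34% at 8 h. The 8 factors kept their direction, and the call of HOXB13 at 22 h was lost.

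**Figure D2:**
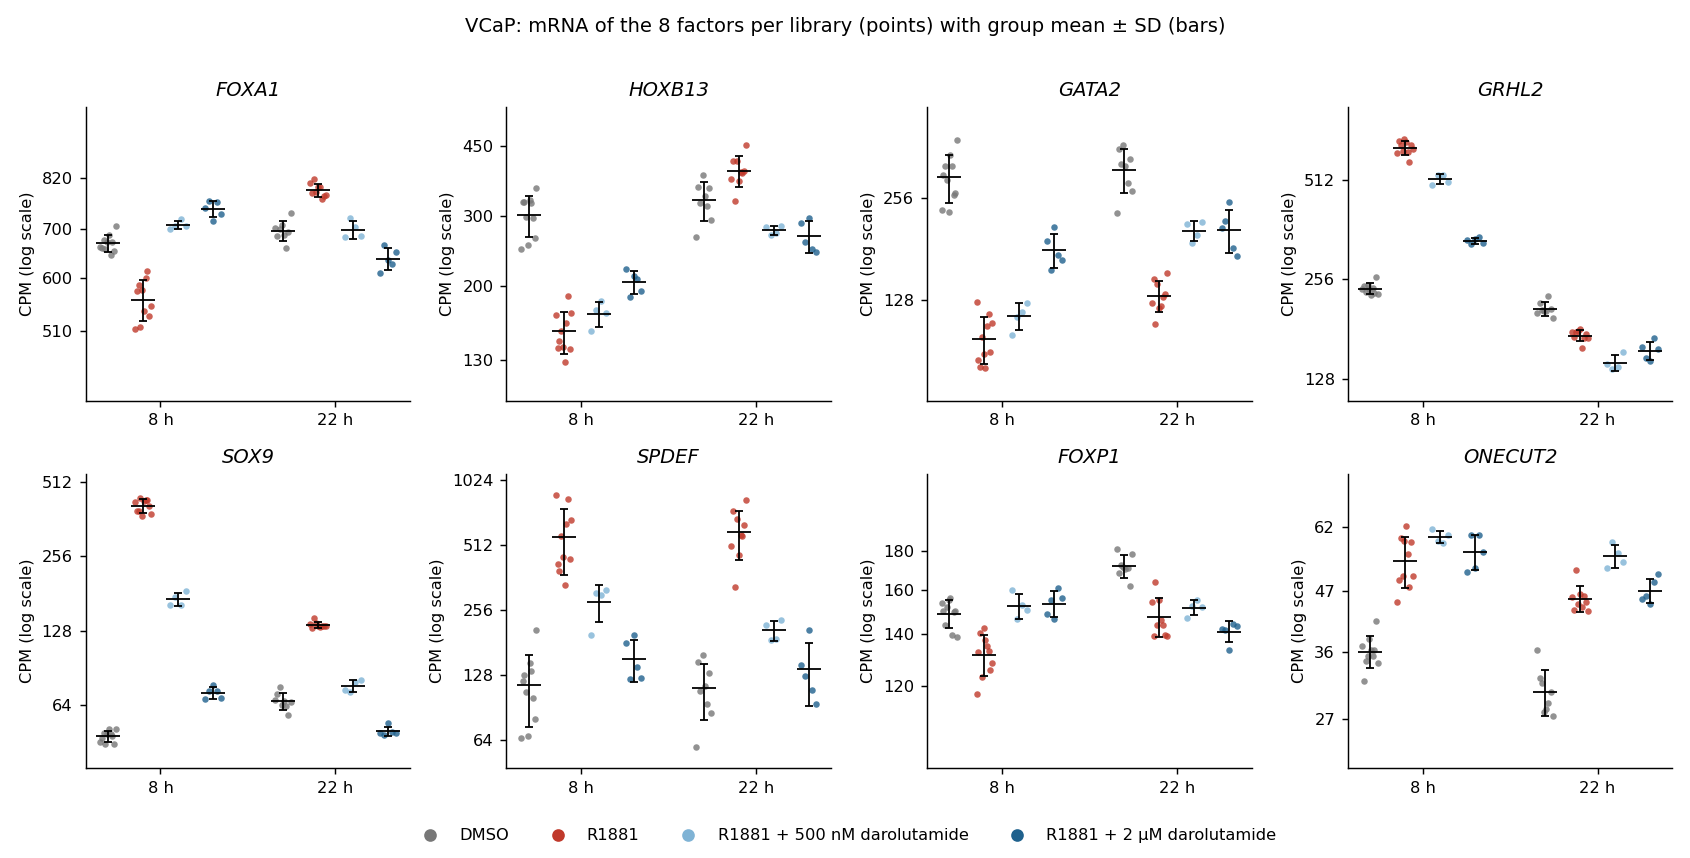
mRNA level of the 8 factors in every VCaP library, in CPM on a log-spaced axis, for DMSO, R1881 and R1881 with 500 nM or 2 µM darolutamide at 8 and then 22 h. Points are libraries and bars the mean with SD; SOX9 and GRHL2 peak with R1881 at 8 h (410 and 638 CPM on average) and are far lower with R1881 at 22 h (135 and 173 CPM).

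FOXA1, the most abundant of the pioneer factors, moved little and in opposite directions at the 2 times. With DMSO at 8 h it had 646 to 706 CPM (median 666) and 513 to 614 with R1881 (median 564), so that every R1881 library lay below every DMSO library. This fall was 1.19-fold (log2 fold change -0.25, SE 0.02, edgeR adjusted p = 1.86e-13). At 22 h it had 660 to 734 CPM with DMSO (median 696) and 768 to 819 with R1881 (median 784), and the R1881 libraries were now all above the DMSO libraries, by 1.13-fold (0.18, SE 0.03, adjusted p = 2.61e-08). The R1881 effect at 22 h differed from that at 8 h by 0.44 on the log2 scale (SE 0.04, adjusted p = 1.7e-15).

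HOXB13 followed the same order with a wider swing. Its libraries ran from 248 to 352 CPM with DMSO at 8 h (median 310) and from 128 to 188 with R1881 (median 150), without overlap, a fall of 1.96-fold (log2 fold change -0.97, SE 0.06, edgeR adjusted p = 2.24e-20). At 22 h the ranges overlapped, with 265 to 379 CPM for DMSO (median 330) and 327 to 452 for R1881 (median 386), and HOXB13 was 1.19-fold above DMSO (0.25, SE 0.07, adjusted p = 0.000875). That call at 22 h did not hold with control replicates 1 to 5 alone (0.17, adjusted p = 0.055) or with library totals (0.14, adjusted p = 0.0688). The change of the R1881 effect between the times, 1.22 (SE 0.09, adjusted p = 3.06e-17), was the largest rise of this kind among the 8.

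GATA2 fell at both times. It went from 232 to 380 CPM with DMSO at 8 h (median 294) to 80.6 to 126 with R1881 (median 94.5), and from 231 to 366 (median 320) to 109 to 153 (median 130) at 22 h. DMSO and R1881 libraries were apart at both times. The falls were 2.99-fold at 8 h (log2 fold change -1.58, SE 0.09, edgeR adjusted p = 1.21e-23) and 2.35-fold at 22 h (-1.23, SE 0.09, adjusted p = 4.7e-18). The difference of 0.35 between them passed (adjusted p = 0.0142) but not with control replicates 1 to 5 alone (0.22, adjusted p = 0.279).

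GRHL2, the grainyhead factor, gave the clearest change of direction. With DMSO at 8 h it had 230 to 261 CPM (median 240), and with R1881 579 to 679 (median 641), a rise of 2.66-fold with no overlap (log2 fold change 1.41, SE 0.03, edgeR adjusted p = 7.52e-44). At 22 h the DMSO libraries had 196 to 228 CPM (median 206) and the R1881 libraries 159 to 181 (median 175), again apart, but now 1.2-fold lower with R1881 (-0.27, SE 0.03, adjusted p = 3.85e-11). The R1881 effect at 22 h minus that at 8 h was -1.68 on the log2 scale (SE 0.04, adjusted p = 2.64e-38).

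SOX9 had the largest response of the 8 at 8 h. It went from 44.4 to 51.2 CPM with DMSO (median 48.3) to 372 to 441 with R1881 (median 417), 8.58-fold higher (log2 fold change 3.10, SE 0.04, edgeR adjusted p = 1.07e-54). At 22 h the R1881 libraries had 131 to 144 CPM (median 134) against 58.3 to 76.0 with DMSO (median 66.4), a rise of 2.03-fold (1.02, SE 0.04, adjusted p = 1.89e-30). The ranges were apart at both times, and the effect was smaller at 22 h by -2.08 on the log2 scale (SE 0.05, adjusted p = 5.1e-38).

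SPDEF, the ETS factor, rose at both times. Libraries ran from 65.5 to 206 CPM with DMSO at 8 h (median 114) and from 334 to 869 with R1881 (median 505), and at 22 h from 59.2 to 158 (median 111) and from 327 to 825 (median 568). The spread within a group exceeded 2-fold from lowest to highest, and still no R1881 library reached down to a DMSO library. The rises were 4.85-fold at 8 h (log2 fold change 2.28, SE 0.19, edgeR adjusted p = 2.61e-16) and 5.27-fold at 22 h (2.40, SE 0.21, adjusted p = 1.33e-15). Their difference was 0.12 with a 95% interval of -0.40 to 0.64, which did not pass and leaves room for unequal rises. The fold change at 22 h was larger in size than that of 95.3% of all tested genes.

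FOXP1 and ONECUT2 responded to R1881 in one direction at both times. FOXP1 had 139 to 156 CPM with DMSO at 8 h (median 150) and 117 to 143 with R1881 (median 133), overlapping, and 162 to 181 (median 171) against 139 to 164 (median 144) at 22 h, overlapping at one end. It fell 1.13-fold at 8 h (log2 fold change -0.18, SE 0.03, edgeR adjusted p = 6.99e-07) and 1.17-fold at 22 h (-0.22, SE 0.03, adjusted p = 2.43e-08). ONECUT2 had 31.8 to 41.2 CPM with DMSO at 8 h (median 35.9) against 44.7 to 62.3 with R1881 (median 52.6), and 27.3 to 36.3 (median 29.6) against 43.1 to 51.4 (median 44.8) at 22 h. Its ranges were apart at both times, with rises of 1.48-fold (0.57, SE 0.05, adjusted p = 2.66e-15) and 1.49-fold (0.58, SE 0.05, adjusted p = 3.5e-14). For both factors the R1881 effect did not differ detectably between the times (-0.04, 95% interval -0.13 to 0.04, for FOXP1, and 0.01, -0.13 to 0.16, for ONECUT2). Over the 8 factors, 5 had a called difference between the times, where 60.4% of all genes did.

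In VCaP at 8 h, 2 µM darolutamide moved every factor but ONECUT2 from its R1881 level in the direction of DMSO. At 22 h it did so for FOXA1, HOXB13, GATA2, SOX9 and SPDEF, of which FOXA1, HOXB13 and SOX9 went on to lie below DMSO on average. By contrast, GRHL2 moved further from DMSO, and FOXP1 and ONECUT2 did not pass the test against R1881. At 2 µM against R1881 alone, 7 of 8 factors were called at 8 h (52.1% of all genes) and 6 of 8 at 22 h (66.9% of all genes). At 500 nM it was 5 of 8 at 8 h (30.6%) and 7 of 8 at 22 h (53%). The median absolute log2 fold change of the 8 with 2 µM was 0.64 at 8 h against 0.25 over all genes, and 0.43 at 22 h against 0.41. Ranges of the 2 µM and R1881 libraries did not overlap for 6 of 8 factors at 8 h (27.1% of all genes). At 22 h this was 5 of 8 (43.5%). With 500 nM it was 5 of 8 at 8 h (15.9%) and 7 of 8 at 22 h (36%). Comparisons of darolutamide with R1881 share their R1881 libraries with those of R1881 against DMSO, so opposite signs in the 2 are not independent of each other. With library totals (chosen after seeing the data) the share of rises among calls went from 49.8% to 67.1% for 2 µM at 8 h, from 48.7% to 69.1% for 500 nM at 8 h and from 50.3% to 63.4% for 500 nM at 22 h. No call among the 8 changed direction.

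SOX9 fell with each dose. It had 163, 163, 175 and 185 CPM with 500 nM at 8 h and 67.7, 68.3, 72.6, 73.0 and 77.4 CPM with 2 µM, against a median of 417 with R1881 alone. At 22 h it had 72.2, 73.8, 79.3 and 80.6 CPM with 500 nM and 48.4, 49.2, 49.3, 49.8 and 53.9 CPM with 2 µM. The doses did not overlap at either time. With 2 µM it was 5.71-fold below R1881 at 8 h (log2 fold change -2.51, SE 0.05, edgeR adjusted p = 5.88e-44) and 2.69-fold below at 22 h (-1.43, SE 0.05, adjusted p = 3.36e-33). Relative to DMSO, the 2 µM group was 1.5-fold above at 8 h (0.59, SE 0.04, adjusted p = 9.63e-17) and 1.33-fold below at 22 h (-0.41, SE 0.05, adjusted p = 7.7e-11), so that at 22 h SOX9 went past its level without androgen.

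SPDEF fell as well. It had 197, 298, 307 and 315 CPM with 500 nM at 8 h and 122, 124, 140, 179 and 195 CPM with 2 µM. At 22 h the values were 185, 188, 219 and 230 CPM with 500 nM and 93.6, 109, 127, 142 and 206 CPM with 2 µM. All of these lay below the R1881 libraries, and the 2 µM group overlapped DMSO at both times. The falls with 2 µM were 3.68-fold at 8 h (log2 fold change -1.88, SE 0.24, edgeR adjusted p = 1.15e-09) and 4.33-fold at 22 h (-2.11, SE 0.24, adjusted p = 4.14e-11). Against DMSO the 2 µM group was at 0.40 (95% interval -0.03 to 0.83) at 8 h and 0.28 (-0.17 to 0.73) at 22 h, neither of which passed. With 500 nM at 8 h the fall was 2.00-fold (-1.0, adjusted p = 0.00101).

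GRHL2 behaved differently at the 2 times. At 8 h it stepped down with dose, with 493, 505, 527 and 528 CPM at 500 nM and 328, 328, 336, 338 and 343 CPM at 2 µM, below R1881 and still above every DMSO library. The fall with 2 µM was 1.91-fold (log2 fold change -0.93, SE 0.04, edgeR adjusted p = 8.28e-30), which left it 1.39-fold above DMSO (0.48, SE 0.03, adjusted p = 1.42e-17). At 22 h, where R1881 alone had lowered it, darolutamide lowered it again, to 138, 140, 142 and 155 CPM with 500 nM and 145, 148, 157, 160 and 170 CPM with 2 µM. With 500 nM it was 1.21-fold below R1881 (-0.27, SE 0.04, adjusted p = 4.11e-08), and with 2 µM 1.11-fold below R1881 (-0.15, SE 0.04, adjusted p = 0.000251) and 1.34-fold below DMSO (-0.42, SE 0.04, adjusted p = 1.36e-14). The call with 2 µM against R1881 was lost with library totals (-0.06, adjusted p = 0.121), whereas the 2 µM libraries lay below every DMSO library.

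Among the pioneer factors, GATA2 came back in part. Libraries at 8 h had 101, 114, 118 and 125 CPM with 500 nM and 156, 167, 174, 190 and 210 CPM with 2 µM, and at 22 h 189, 198, 214 and 218 CPM with 500 nM and 173, 182, 208, 218 and 249 CPM with 2 µM. At 8 h only the 2 µM libraries lay above all R1881 libraries, whereas at 22 h those of both doses did. With 2 µM it was 1.82-fold above R1881 at 8 h (log2 fold change 0.87, SE 0.10, edgeR adjusted p = 9.86e-11) and 1.56-fold above at 22 h (0.65, SE 0.10, adjusted p = 2.02e-07), and remained 1.64-fold and 1.5-fold below DMSO (-0.71, adjusted p = 1.69e-07, and -0.59, adjusted p = 5.46e-06). The 2 µM and DMSO libraries were apart at 8 h and overlapped at 22 h.

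HOXB13 ended below DMSO in both cases. Values at 8 h were 153, 170, 173 and 183 CPM with 500 nM and 187, 194, 208, 211 and 220 CPM with 2 µM, the latter 1.33-fold above R1881 (log2 fold change 0.41, SE 0.08, edgeR adjusted p = 6.25e-06) and 1.48-fold below DMSO (-0.56, SE 0.08, adjusted p = 3.65e-08). At 22 h it had 268, 272, 281 and 283 CPM with 500 nM and 243, 247, 258, 287 and 297 CPM with 2 µM, all below the R1881 libraries. That was 1.46-fold below R1881 with 2 µM (-0.55, SE 0.08, adjusted p = 1.79e-08) and 1.23-fold below DMSO (-0.30, SE 0.08, adjusted p = 0.00107). At 8 h the ranges of both doses overlapped R1881, and at 22 h that of 2 µM overlapped DMSO.

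FOXA1 crossed its DMSO level at both times. At 8 h it had 700, 706, 707 and 722 CPM with 500 nM and 719, 734, 746, 761 and 764 CPM with 2 µM, all above R1881, and the 2 µM group was 1.11-fold above DMSO (log2 fold change 0.15, SE 0.03, edgeR adjusted p = 4.15e-05). At 22 h it had 682, 685, 703 and 724 CPM with 500 nM and 610, 627, 635, 652 and 667 CPM with 2 µM, all below R1881, and the 2 µM group was 1.09-fold below DMSO (-0.13, SE 0.03, adjusted p = 0.000587), with a slight overlap.

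ONECUT2 did not return toward DMSO. Its levels at 8 h were 57.9, 58.2, 59.7 and 61.3 CPM with 500 nM and 50.9, 51.8, 55.6, 59.7 and 59.7 CPM with 2 µM, and at 22 h 51.8, 53.2, 55.2 and 58.0 CPM with 500 nM and 44.4, 45.4, 46.0, 48.7 and 50.5 CPM with 2 µM. Every one of these libraries lay above every DMSO library of its time. The 2 µM group was 1.54-fold above DMSO at 8 h (log2 fold change 0.62, SE 0.06, edgeR adjusted p = 3.66e-13) and 1.55-fold above at 22 h (0.63, SE 0.06, adjusted p = 5.57e-13), and did not differ detectably from R1881 (0.06, 95% interval -0.06 to 0.17, and 0.05, -0.07 to 0.17). With 500 nM at 22 h it rose above R1881 by 1.2-fold (0.27, SE 0.06, adjusted p = 0.000409). Under library totals (chosen after seeing the data) it was also called above R1881 with 2 µM, by 0.17 at 8 h and 0.14 at 22 h.

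FOXP1 depended on the time. At 8 h it had 147 to 160 CPM with 500 nM and 147 to 161 CPM with 2 µM, all above R1881, and rose with both (log2 fold changes 0.21 and 0.22, edgeR adjusted p = 2.05e-05 and 7.88e-07). At 22 h it had 147 to 155 and 133 to 145 CPM, values that overlapped R1881 (0.04, 95% interval -0.04 to 0.12, and -0.06, -0.14 to 0.01). Against DMSO, the 2 µM group did not differ detectably at 8 h (0.04, -0.03 to 0.11) and was 1.22-fold lower at 22 h (-0.28, SE 0.04, adjusted p = 7.48e-09).

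Taking 2 µM against DMSO for the 8 factors, 6 were called at 8 h, where 27.5% of all genes were, and 7 at 22 h, where 59% were. The 8 h count includes GRHL2, SOX9, FOXA1 and ONECUT2 above DMSO and HOXB13 and GATA2 below it. Ranges of 2 µM and DMSO did not overlap for 6 of 8 factors at 8 h (13.3% of all genes). At 22 h this was 4 of 8 (34.2%). The doses themselves, 2 µM against 500 nM, differed for 5 of 8 factors at 8 h (17.6% of all genes) and for 4 of 8 at 22 h (20.2%). Their ranges did not overlap for 5 of 8 at 8 h (18.2% of all genes) and 4 of 8 at 22 h (19.8%). SOX9 was lower with 2 µM at both times (log2 differences -1.26 and -0.61, edgeR adjusted p = 1.34e-26 and 2.05e-13). GRHL2 (-0.62), SPDEF (-0.88), GATA2 (0.65) and HOXB13 (0.26, adjusted p = 0.0435) differed at 8 h, and FOXA1 (-0.13, adjusted p = 0.00718), ONECUT2 (-0.22, adjusted p = 0.0258) and GRHL2 (0.12, adjusted p = 0.0408) at 22 h. For 2 µM against 500 nM at 8 h, library totals took the share of rises among all calls from 42.8% to 54.7%.

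The 3 dose differences nearest the threshold were lost on leaving out any one of several libraries, with log2 differences that stayed close to those over all libraries. GRHL2 at 22 h was no longer called without high-dose replicate 1 (0.11), 3 (0.11) or 4 (0.10), or without low-dose replicate 1 (0.08), 2 (0.10), 3 (0.11) or 4 (0.13), with edgeR adjusted p between 0.0506 and 0.277. ONECUT2 at 22 h was no longer called without high-dose replicate 1 (-0.20) or 2 (-0.20) or low-dose replicate 2 (-0.18) or 3 (-0.21), with adjusted p between 0.0529 and 0.0955. HOXB13 at 8 h was no longer called without high-dose replicate 1 (0.23), 3 (0.25) or 4 (0.26) or low-dose replicate 1 (0.22), 2 (0.27) or 4 (0.26), with adjusted p between 0.069 and 0.165. In the other direction, SPDEF at 22 h was called without high-dose replicate 3 (-0.83, adjusted p = 0.0246), and FOXP1 at 22 h without low-dose replicate 1 (-0.15, adjusted p = 0.0286).

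In LAPC4 the same treatments moved the 8 transcripts little. R1881 changed 1 factor at 8 h, where 2.64% of all genes were called, and 2 at 22 h, where 13.3% were. The median absolute log2 fold change at 8 h was 0.11 for the 8 and 0.06 for all genes. At 22 h it was 0.09 for the 8 and 0.09 for all genes. Ranges of the R1881 and DMSO libraries did not overlap for 1 of 8 factors at 8 h (0.725% of all genes). At 22 h this was 2 of 8 (3.83%). FOXA1 had 1094 to 1190 CPM with DMSO (median 1122) and 1036 to 1085 with R1881 (median 1057) at 8 h, and 1041 to 1108 (median 1067) against 943 to 1015 (median 973) at 22 h, without overlap at either time. SPDEF at 22 h had 79.1 to 140 CPM with DMSO (median 107) and 91.7 to 226 with R1881 (median 142), with wide overlap (log2 fold change 0.41, 95% interval -0.01 to 0.82).

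**Figure D3:**
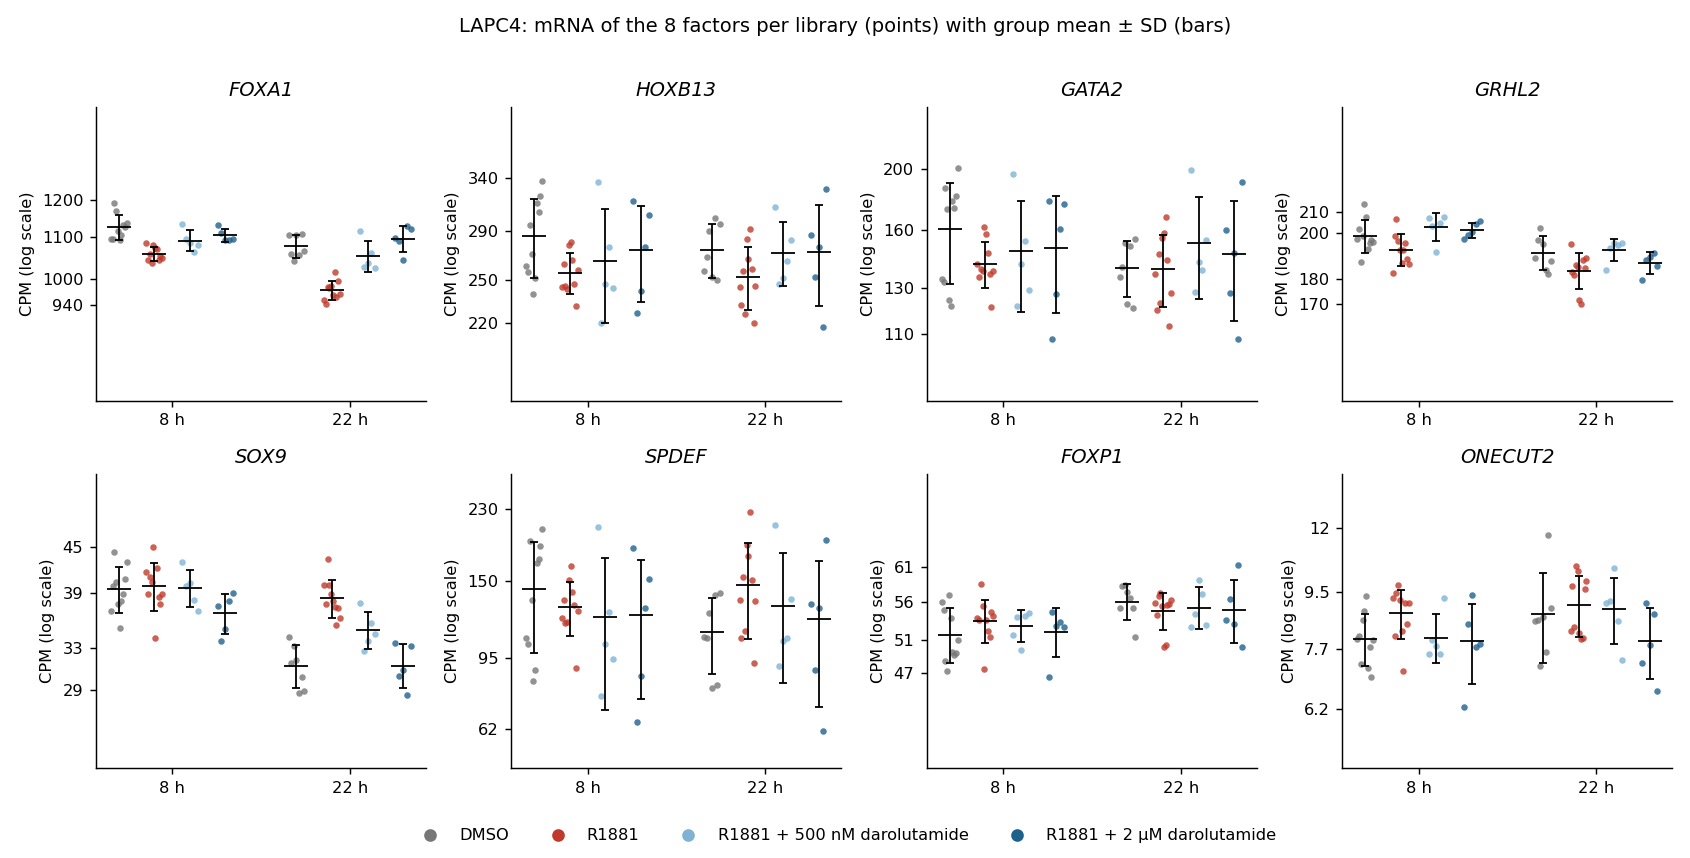
mRNA level of the 8 factors in every LAPC4 library, in CPM on a log-spaced axis, with the groups ordered as for VCaP. Points are libraries and bars the mean with SD; the groups of most factors overlap, while FOXA1 with R1881 at 22 h (mean 974 CPM) lies below DMSO (mean 1078 CPM).

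FOXA1 fell by 1.06-fold at 8 h (log2 fold change -0.09, SE 0.02, edgeR adjusted p = 0.000608) and by 1.11-fold at 22 h (-0.15, SE 0.02, adjusted p = 3.45e-08). The call at 8 h was lost with control replicates 1 to 5 (-0.10, adjusted p = 0.0806) and with replicates 6 and above (-0.08, adjusted p = 0.211, chosen after seeing the data). SOX9 at 22 h had 28.8 to 34.2 CPM with DMSO (median 31.5) and 35.4 to 43.3 with R1881 (median 37.9), apart, a rise of 1.23-fold (0.30, SE 0.05, adjusted p = 1.43e-06), and at 8 h its ranges overlapped (0.01, 95% interval -0.07 to 0.10). The R1881 effect differed between the times for SOX9 alone among the 8 (0.29, adjusted p = 0.00242), where 3.21% of all genes differed, and this was lost with control replicates 1 to 5 (0.27, adjusted p = 0.0772) and with 6 and above (0.35, adjusted p = 0.136). Among all calls of that comparison, library totals took the share that were higher from 56% to 42.3%.

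Darolutamide reversed both changes at 22 h. SOX9 had 32.7, 33.7, 34.5, 35.6 and 37.8 CPM with 500 nM and 28.5, 30.2, 30.8, 33.2 and 33.5 CPM with 2 µM, the latter 1.23-fold below R1881 (log2 fold change -0.30, SE 0.05, edgeR adjusted p = 2.16e-05). FOXA1 had 1025, 1027, 1036, 1060 and 1117 CPM with 500 nM and 1044, 1091, 1098, 1122 and 1129 CPM with 2 µM, all above the R1881 libraries, and rose 1.08-fold (0.11, SE 0.02, adjusted p = 0.00015) and 1.13-fold (0.17, SE 0.02, adjusted p = 1.01e-08). Thus 1 of 8 was called with 500 nM (5.89% of all genes) and 2 of 8 with 2 µM (10.5%) at 22 h. Ranges did not overlap with R1881 for 1 of 8 with 500 nM (3.03% of all genes). With 2 µM this was 2 of 8 (3.96%). The median absolute log2 fold change of 2 µM against R1881 at 22 h was 0.14 for the 8 and 0.08 for all genes.

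At 8 h no factor was called by edgeR with 500 nM (0.626% of all genes) or 2 µM (1.54%) against R1881. An unadjusted p under 0.05 was found for 1 and 3 of the 8, and for 884 and 1428 of all 18204 genes. Nor was any factor called between the doses at 8 h (0.0275% of all genes, 0 of 8 with an unadjusted p under 0.05) or 22 h (0.258%, 2 of 8), or for 2 µM against DMSO at 8 h (0.011%, 1 of 8) or 22 h (0.0165%, 0 of 8). Over all genes, the unadjusted p was under 0.05 for 576 and 977 between the doses at 8 and 22 h. Against DMSO this was so for 601 and 1064. DESeq2 called none of the 8 in these 6 comparisons either. For SPDEF the 95% intervals of 2 µM against R1881 were wide, -0.53 to 0.39 at 8 h and -0.76 to 0.17 at 22 h, while for GRHL2 they were 0.01 to 0.12 and -0.03 to 0.08. HOXB13 (0.10 and 0.11), GATA2 (0.08 and 0.07), FOXP1 (-0.04 and 0.00) and ONECUT2 (-0.15 and -0.19) had small log2 fold changes that did not pass either.

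The R1881 effect differed between the lines for all 8 factors at both times, in a fit of both lines together. That was 8 of 8 at 8 h (58.5% of all genes) and 8 of 8 at 22 h (68.5%). The differences, VCaP minus LAPC4, were 3.0 for SOX9, 2.35 for SPDEF and 1.37 for GRHL2 at 8 h, and -1.48 for GATA2 and -0.90 for HOXB13. At 22 h they were 1.94 for SPDEF (SE 0.29, edgeR adjusted p = 2.77e-09), 0.66 for SOX9 and -1.28 for GATA2 (SE 0.14, adjusted p = 9.47e-15). The effect of 2 µM darolutamide against R1881 differed for 7 of 8 at 8 h (39.9% of all genes) and 6 of 8 at 22 h (58.9%). ONECUT2 did not pass at either time (0.26, 95% interval 0.04 to 0.48, adjusted p = 0.054, and 0.24, 0.01 to 0.46, adjusted p = 0.0669), and FOXP1 did not at 22 h (-0.07, -0.19 to 0.06).

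Leaving out single darolutamide libraries brought ONECUT2 past the threshold in that comparison. At 8 h this was so without LAPC4 high-dose replicate 2 (0.30) or 3 (0.33) or VCaP high-dose replicate 1 (0.29) or 3 (0.29), and at 22 h without LAPC4 high-dose replicate 2 (0.30) or 4 (0.28). For the darolutamide effect at 8 h, library totals took the share of calls higher in VCaP from 54% to 65.9%, and at 22 h they ended the call of GRHL2 (from -0.18 to -0.09, edgeR adjusted p = 0.0822).

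**Figure D4:**
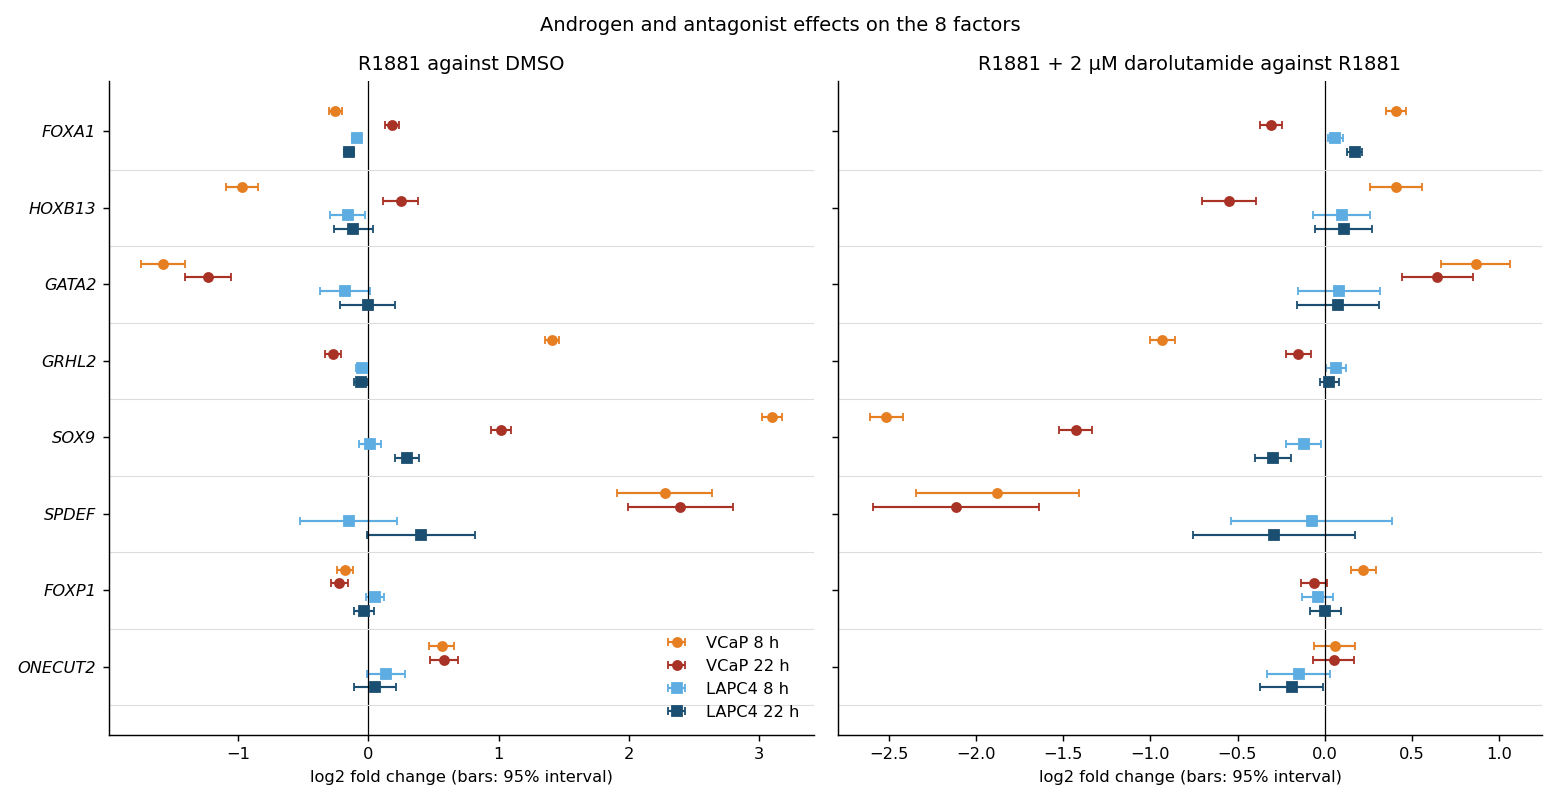
Log2 fold changes of the 8 factors for R1881 against DMSO and for 2 µM darolutamide with R1881 against R1881, with 95% intervals, in VCaP (circles) and LAPC4 (squares) at 8 and 22 h. In VCaP the R1881 values run from -1.58 (GATA2) to 3.10 (SOX9) at 8 h and from -1.23 to 2.40 (SPDEF) at 22 h, and the LAPC4 values for R1881 lie between -0.18 and 0.41.

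With DMSO alone, time in culture changed some factors. In VCaP 4 of 8 differed between 22 and 8 h (29.8% of all genes): SOX9 was 1.39-fold higher at 22 h (log2 difference 0.48, SE 0.04, edgeR adjusted p = 4.32e-15), FOXP1 was higher (0.21), and ONECUT2 (-0.25) and GRHL2 (-0.20) were lower. In LAPC4 3 of 8 differed (22.1% of all genes), with SOX9 1.27-fold lower at 22 h (-0.34, SE 0.05, adjusted p = 6.48e-08), FOXA1 lower (-0.06, adjusted p = 0.0123) and FOXP1 higher (0.12, adjusted p = 0.0263). SOX9 thus rose with time in VCaP and fell in LAPC4, a contrast between the lines that was not tested. The FOXA1 and FOXP1 calls in LAPC4 were lost with control replicates 6 and above, without the filter on low counts and with the replicate block. FOXA1 was also lost with library totals (edgeR adjusted p = 0.0799) and with only the compared groups (0.200). FOXP1 was also lost with control replicates 1 to 5 (0.155). The share of higher calls in VCaP moved from 53.3% to 39.3% with library totals.

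Scatter between libraries of one group was not alike for the 8 factors, and it followed base composition. The main direction of variation within groups accounted for 48.6% (VCaP) and 59.7% (LAPC4) of variance, and a library's score on it tracked the slope of its counts on transcript G+C content (Pearson's r of size 0.997 in both lines, over 55 and 57 libraries). SPDEF, whose longest transcript has 64.6% G+C, had a within-group SD of 0.40 on the log2 scale in VCaP and 0.42 in LAPC4, and its deviations followed that score with r = 0.993 and 0.995. GATA2 (60.4% G+C, r = 0.976 in both) and HOXB13 (57.7%, r = 0.954 and 0.978) did so too. FOXA1 (50.4% G+C), GRHL2 and SOX9 had within-group SDs of 0.03 to 0.09 and r between -0.35 and 0.41, and FOXP1 and ONECUT2, the factors with the lowest G+C content, had negative r of -0.60 to -0.72. These r describe libraries that share their groups and sequencing, and the score was derived from the same counts.

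**Figure D5:**
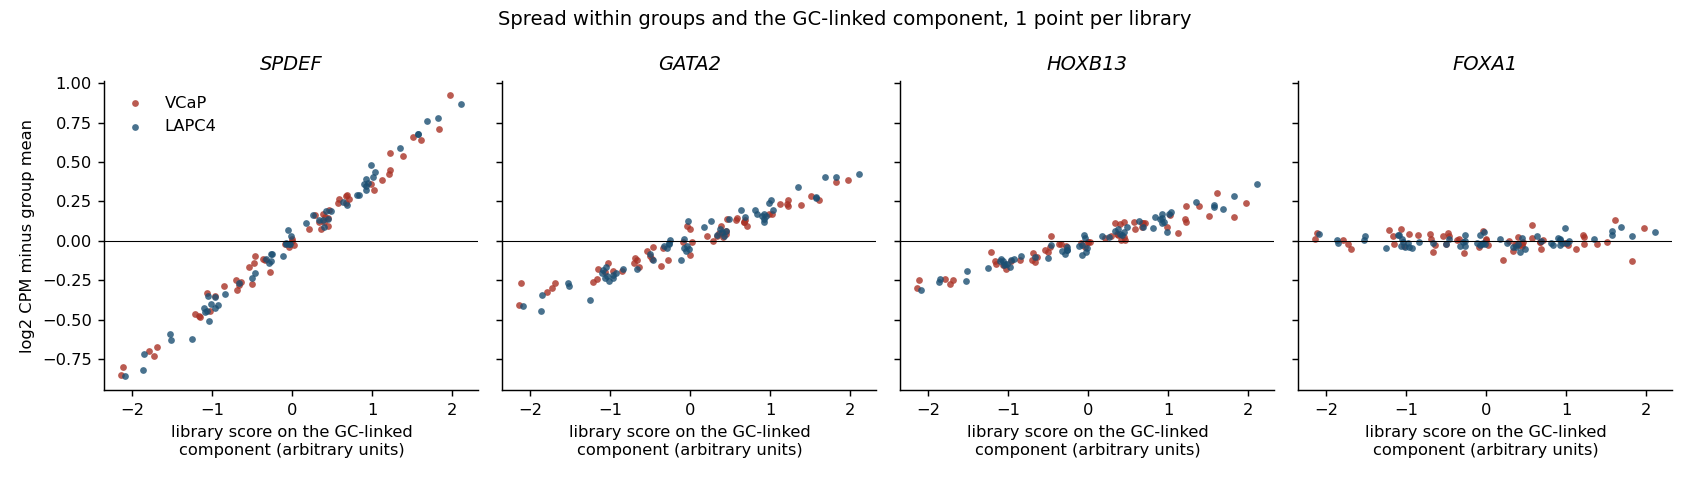
Deviation of log2 CPM from the group mean, in log2 units, against the library's score on the main direction of within-group variation, for SPDEF, GATA2, HOXB13 and FOXA1 in VCaP and LAPC4 libraries. SPDEF, GATA2 and HOXB13 lie along a line (r of 0.954 to 0.995) while FOXA1 stays near 0.

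With this score as a covariate, all 118 calls of the 8 factors were kept. The score is centred within groups and comes from the same counts, so that it narrows the SE of a factor that follows it and leaves group means nearly as they were. For SPDEF with R1881 in LAPC4 at 22 h, the log2 fold change was 0.39 (SE 0.02) with the covariate and 0.41 (SE 0.21) without it. Calls that were gained only in that fit, for SPDEF, HOXB13 and GATA2 but also for FOXP1, ONECUT2, GRHL2 and SOX9, are therefore not counted as changes here.

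Relatives of the 8 factors, 22 genes of the same families, were less often measurable, with 12 tested in VCaP and 13 in LAPC4. In VCaP, R1881 raised 2 and lowered 7 of the 12 at 22 h (77.4% of all genes called) and raised 4 and lowered 6 at 8 h (66.9%). With 2 µM darolutamide against R1881, 3 rose and 3 fell at 22 h (66.9% of all genes called), and 6 rose and 3 fell at 8 h (52.1%). In LAPC4, R1881 raised 3 and lowered 2 of 13 at 22 h (13.3%). GRHL1, the closest grainyhead relative of GRHL2, had 7.89 to 9.91 CPM with DMSO at 22 h in VCaP and 20.9 to 24.5 with R1881, and rose by 3.41 on the log2 scale at 8 h (SE 0.06, edgeR adjusted p = 7.62e-49) and by 1.36 at 22 h (SE 0.06, adjusted p = 1.57e-27). At 22 h GRHL1 was therefore above DMSO while GRHL2 was below it. In LAPC4 GRHL1 fell by 0.21 on the log2 scale at 22 h. GRHL3, at 0.135 to 0.305 CPM with DMSO in VCaP and 1.19 to 1.92 in LAPC4, rose in both lines (1.96 and 1.44). HOXA13 was called in both lines, at -0.72 in VCaP and 0.50 in LAPC4, and so was the ETS factor EHF, at -0.22 and 0.27. HOXD13 fell by 1.39 in VCaP and was at or near 0 in LAPC4.

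Partners, 21 receptors, cofactors and co-binding factors of the same enhancers, were nearly all tested, 20 in VCaP and 21 in LAPC4. R1881 raised 14 and lowered 5 of 20 in VCaP at 22 h (77.4% of all genes called) and raised 12 and lowered 5 at 8 h (66.9%). With 2 µM darolutamide against R1881, 4 rose and 11 fell at each time (66.9% of all genes called at 22 h and 52.1% at 8 h). In LAPC4 at 22 h R1881 raised 3 and lowered 2 of 21 (13.3%). At 22 h with R1881, the HOX cofactor MEIS1 fell by 2.59 on the log2 scale in VCaP, from 1.39 to 2.73 CPM to 0.150 to 0.739, and did not pass in LAPC4 (-0.01). The corepressor gene NCOR1 rose in both lines (0.31 in VCaP and 0.11 in LAPC4).

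Neighbouring genes did not always move with the factor. PRAC2, 5 bases from HOXB13 on chromosome 17, fell in VCaP with R1881 at 8 h (log2 fold change -0.55) and at 22 h (-0.91, SE 0.09, edgeR adjusted p = 4.51e-14), while HOXB13 fell at 8 h and rose at 22 h. GATA2-AS1, which overlaps GATA2 on the other strand, had a mean of 6.76 CPM with DMSO at 22 h against 309 for GATA2, and fell at 8 h (-0.57) and rose at 22 h (1.12, SE 0.07, adjusted p = 2.57e-20), while GATA2 fell at both. PACSIN1, 2573 bases from SPDEF on chromosome 6, rose at 8 h (2.94, SE 0.09) and 22 h (1.14, SE 0.10), as did SPDEF. TTC6, which overlaps the start of FOXA1 on chromosome 14, fell at 8 h (-0.49) and rose at 22 h (0.14), like FOXA1. SOX9-AS1 had a mean of 0.352 CPM with DMSO at 22 h in VCaP. Whether counting used the strand is not given in the sources used here, so reads of overlapping genes may be shared.

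Over the 55 VCaP libraries, the genes whose log2 CPM was most like that of each factor, among 13967 genes with a mean log2 CPM above 1, were sought by Pearson's r, which here mostly reflects shared treatment groups. NRCAM was closest to GRHL2 (r = 0.984), KLHL36 to SOX9 (0.983), ZBTB7B to SPDEF (0.985), C21orf33 to HOXB13 (0.972) and RNF44 to GATA2 (0.957). ZBTB8B was closest to ONECUT2 (0.920), ACOT13 to FOXA1 (0.877) and TRGV9 to FOXP1 (0.867). Over the 57 LAPC4 libraries, ZBTB7B, C21orf33 and RNF44 had an r of 0.975, 0.815 and 0.759 with their factors, the 3 that follow the base-composition score, and KLHL36 had -0.152 and ACOT13 -0.0575. Among the 8 themselves, HOXB13 and GRHL2 were opposed in VCaP (r = -0.865), as were GATA2 and SOX9 (-0.861), and SOX9 and SPDEF went together (0.812). In LAPC4 the closest pairs were HOXB13 with GATA2 (0.928) and GATA2 with SPDEF (0.900). Within LAPC4 groups HOXB13, GATA2 and SPDEF each follow the base-composition score (r = 0.978, 0.976 and 0.995). The part of that score in these pairs was not tested.

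In order of mean CPM over the 8 VCaP groups, neighbouring groups mostly overlapped in range, and the clear steps were few. For GRHL2, R1881 at 8 h, 500 nM, 2 µM, DMSO at 8 h, DMSO at 22 h and R1881 at 22 h followed each other without overlap. For SOX9 there were steps below R1881 at 8 h, 500 nM at 8 h, R1881 at 22 h and DMSO at 22 h. SPDEF had 1 step, below both R1881 groups, and ONECUT2 had 1, above both DMSO groups. FOXA1 had 1 below R1881 at 22 h, GATA2 had 1 above R1881 at 22 h, FOXP1 had 1 below DMSO at 22 h, and HOXB13 had 2, on either side of 2 µM at 8 h. In LAPC4 neighbouring groups overlapped throughout, except that FOXA1 with R1881 at 22 h lay below the rest.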

How the data were processed

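RNA-seq counts of VCaP and LAPC4 libraries were analysed. The authors made stranded poly-A libraries, sequenced single-end 50-base reads, aligned them to GRCh38 with STAR, and deposited unnormalized featureCounts counts per gene in one table; the submitters' processing notes also name bcl2fastq 2.17. Tool versions beyond that, the annotation, how strand was used and how multimapping reads were handled are not given in the sources used here. Groups and replicate numbers came from the labels. The study states 5 biological replicates per condition, whereas 4 to 10 libraries carry each group's label, so p-values measure the spread between these libraries. No 2 libraries of a group agreed within sampling noise (chi-square per degree of freedom of at least 1.47).

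From the counts, genes reaching 10 reads in 4 or more libraries of a line were fitted with TMM factors and glmQLFit in edgeR 4.0.16 (R 4.3.3), the 8 groups of a line together and all 16 for contrasts between lines, and tested with glmQLFTest and Benjamini-Hochberg adjustment over all tested genes. SE was taken as the size of the log2 fold change over the root of the F statistic. CPM used TMM factors computed within each line. Log2 CPM used a prior count of 2. The script was tested on simulated counts. Alternatives were no low-count filter, DESeq2 1.42.0 (own size factors), only the compared groups, control replicates 1 to 5, a replicate block, the first principal component of within-group variation as a covariate, and omission of each darolutamide replicate, and, chosen after seeing the data, control replicates 6 and above and library totals without TMM.

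The members, the lists of relatives and partners and the tests were chosen with earlier results of these data known. All 8 members are described. Relatives and partners are counted and named if tested in both lines with an absolute log2 fold change above 1 for R1881 in VCaP at 22 h, or if called in both lines; some partners that meet this rule are counted but not reported here by name. HOXD13 falls outside that rule and was named after its values were seen. Gene neighbours and the genes most alike by Pearson's r are also named, with ERG, KLK3 and FKBP5 as checks. Positions are from GENCODE 44 on GRCh38 and sequences from RefSeq.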

Additional observations from a re-analysis of the deposited data

Results flagged for a closer look

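Of 128 groups of libraries, 8 factors in 16 groups, 11 held a library far from the others of its group, where chance marks about 1 in 20. The 8 factors were counted in the same libraries, so these groups are not independent of each other. No excess or lack of such libraries is read from the count. In VCaP these were GRHL2 with R1881 at 22 h, replicate 6, lowest at 159 CPM, GRHL2 with DMSO at 8 h, replicate 9, highest at 261 CPM, and SOX9 with R1881 at 22 h, replicate 3, highest at 144 CPM. SOX9 with 2 µM at 22 h, replicate 3, was highest at 53.9 CPM, SPDEF with 500 nM at 8 h, replicate 1, lowest at 197 CPM, FOXP1 with 2 µM at 22 h, replicate 3, lowest at 133 CPM, and ONECUT2 with R1881 at 22 h, replicate 3, highest at 51.4 CPM. In LAPC4 they were GRHL2 with 500 nM, lowest at 184 CPM at 22 h (replicate 1) and at 192 CPM at 8 h (replicate 3), FOXP1 with 2 µM at 8 h, replicate 1, lowest at 46.6 CPM, and ONECUT2 with 500 nM at 8 h, replicate 5, highest at 9.29 CPM.

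An effect differed between times or lines in 35 called tests (edgeR). Of all genes, 60.4% in VCaP and 3.21% in LAPC4 had a called difference of the R1881 effect between times. Between the lines the R1881 effect differed for 58.5% of all genes at 8 h and 68.5% at 22 h. For 2 µM darolutamide this was 39.9% at 8 h and 58.9% at 22 h. The R1881 effect at 22 h minus that at 8 h, on the log2 scale, was 0.44 for FOXA1, 1.22 for HOXB13, 0.35 for GATA2, -1.68 for GRHL2 and -2.08 for SOX9 in VCaP, and 0.29 for SOX9 in LAPC4. The R1881 effect in VCaP minus that in LAPC4 at 22 h was 0.27 for FOXA1, 0.31 for HOXB13, -1.28 for GATA2, -0.27 for GRHL2, 0.66 for SOX9, 1.94 for SPDEF, -0.25 for FOXP1 and 0.47 for ONECUT2. At 8 h it was -0.25 for FOXA1, -0.90 for HOXB13, -1.48 for GATA2, 1.37 for GRHL2, 3.0 for SOX9, 2.35 for SPDEF, -0.31 for FOXP1 and 0.35 for ONECUT2.

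The effect of 2 µM darolutamide against R1881 in VCaP minus that in LAPC4 at 22 h was -0.48 for FOXA1, -0.65 for HOXB13, 0.58 for GATA2, -0.18 for GRHL2, -1.13 for SOX9 and -1.81 for SPDEF. At 8 h it was 0.40 for FOXA1, 0.37 for HOXB13, 0.84 for GATA2, -0.94 for GRHL2, -2.34 for SOX9, -1.74 for SPDEF and 0.32 for FOXP1.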

How the results depend on the processing

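Over 232 tests of the 8 factors there were 118 calls. In 803 alternative values of these calls, 776 kept call and direction, 27 lost the call and 0 changed direction, and leaving out single darolutamide replicates, over 404 values, lost 17 and reversed 0. The number of called factors for the doses in VCaP at 22 h went from 4 to 2 without the filter on low counts and lay between 2 and 4 without single replicates. Calls over all genes went from 3889 to 3189 without that filter. The number of called factors for 500 nM against R1881 in VCaP at 8 h went from 5 to 8 with the first principal component as a covariate and with library totals (chosen after seeing the data). Calls over all genes went from 5897 to 7869 and to 6718 in these fits. In LAPC4 with the covariate, which comes from the same counts and narrows the SE by its construction, the counts became 5 for R1881 (from 2), 5 for 500 nM (from 1), 4 for 2 µM (from 2) and 1 for the doses (from 0) at 22 h, and 4 for R1881 (from 1), 1 for 500 nM (from 0), 2 for 2 µM against R1881 (from 0) and 3 against DMSO (from 0) at 8 h, with 7 for time with DMSO (from 3) and 3 for the R1881 effect over time (from 1). Calls over all genes rose as well. At 22 h they became 4931 for R1881 (from 2418), 2240 for 500 nM (from 1072), 3927 for 2 µM (from 1906) and 304 for the doses (from 47). At 8 h they became 2236 for R1881 (from 481), 300 for 500 nM (from 114) and 668 for 2 µM against R1881 (from 281). Against DMSO they became 1006 (from 2), for time with DMSO 7149 (from 4020) and for the R1881 effect over time 3311 (from 584). Control replicates 1 to 5 gave 0 for R1881 in LAPC4 at 8 h (from 1), 0 for the R1881 effect over time (from 1) and 2 for 500 nM at 22 h (from 1). Calls over all genes there were 238 (from 481), 275 (from 584) and 1130 (from 1072). Control replicates 6 and above, chosen after seeing the data, gave 0, 0 and, for time with DMSO, 1, and no filter on low counts gave 1 for the last. Calls over all genes were 208, 109 and 1318 with these replicates, and 3121 for the last without the filter. The cause was not tested, beyond the smaller number of libraries where replicates were left out.

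With the replicate number as a block, 82 of 192 tests were called, as without it, and 75 calls were shared. The block gave 0 for R1881 in LAPC4 at 8 h (from 1), 4 for 2 µM against R1881 at 22 h (from 2) and 1 for time with DMSO (from 3). Calls over all genes there were 304 (from 481), 2788 (from 1906) and 3009 (from 4020). The block ended 7 calls, FOXA1 against DMSO in VCaP with 2 µM at 22 h (adjusted p = 0.0558), SPDEF with 500 nM at 8 h (0.0855), the GATA2 difference between times (0.0781) and the GRHL2 dose difference at 22 h (0.0511), and in LAPC4 FOXA1 with R1881 at 8 h (0.139) and FOXA1 (0.262) and FOXP1 (0.164) over time with DMSO. It gained 7: in VCaP SPDEF with 2 µM against DMSO at 8 h (0.67, adjusted p = 0.00947), the SPDEF (0.0335) and FOXP1 (0.0444) dose differences at 22 h and HOXB13 over time with DMSO (0.0388), and in LAPC4 at 22 h SPDEF with R1881 (0.49, 0.00176) and HOXB13 (0.0348) and SPDEF (0.0478) with 2 µM against R1881. The labels do not say that a number is shared between groups by origin, and same-numbered libraries did not deviate together (mean r = -0.0122 over 149 pairs in VCaP, 0.106 over 161 in LAPC4). A library was most like one of its own number in 8 of 55 VCaP and 7 of 57 LAPC4 libraries. At 99 to 230 reads of ONECUT2 per LAPC4 library, counting error limits what can be seen for it.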
